A study of Mus musculus with 12 samples.

Results

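Scavenger and endocytic receptors bind extracellular proteins, lipoproteins, polyanions and cell debris at the surface of myeloid cells and carry them into endosomes, where dendritic cells (DCs) begin the processing of antigen for MHC molecules. The 10 genes described here are a list of receptor names, drawn up with earlier results of these data known and with no threshold on a measured value: Mrc1, Ly75, Msr1, Marco, Cd36, Scarb1, Scarb2, Lrp1, Stab1 and Cd163. They are 10 of the 55401 genes in the count table, and 8 of them were among the 14079 genes with enough reads to be tested. Mrc1 and Cd163 were not tested.

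The receptors fall into structural families. Mrc1 (mannose receptor) and Ly75 (DEC-205) are C-type lectin family members with a chain of lectin-like domains, and both deliver cargo to compartments for antigen presentation. Msr1 (SR-A) and Marco are class A scavenger receptors with a collagenous stalk that bind modified lipoproteins and bacteria. Cd36, Scarb1 (SR-BI) and Scarb2 (LIMP-2) are class B receptors with a large loop between 2 membrane spans; Cd36 and Scarb1 take up lipids at the surface, while Scarb2 sits in lysosomes and brings glucocerebrosidase there. Lrp1 is a giant member of the LDL receptor family that clears protease complexes, Stab1 (stabilin-1) clears acetylated lipoprotein and SPARC, and Cd163 is the macrophage receptor for haptoglobin and haemoglobin.

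RNA was sequenced from Sp37A3, a dendritic cell line derived from the spleen of a C57BL/6 mouse, in 12 libraries, 3 for each of 4 groups. CtrV cells carried the empty lentiviral vector and express Siglec-E, an inhibitory receptor for sialic acids; EKO cells carried a CRISPR vector directed at Siglece and were a pool of several selected clones. Each line was either left unpulsed or pulsed with ovalbumin (OVA), and every group, controls included, was stimulated with lipopolysaccharide (LPS), with a processing time of 24 h given in the labels, and had been grown with GM-CSF and M-CSF. The comparisons below ask whether the lines differ, whether OVA changes a line, and whether the line difference depends on OVA. Levels are given as CPM, the counts of a gene relative to its library's total, scaled by TMM, a factor that corrects for library composition.

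Library totals lay between 27116201 and 39698572 counts (median 31290683). Siglece (ENSMUSG00000030474) was not lower in the libraries labelled EKO: its mean was 195 CPM ± 18.0 (SD, n = 3) in OVA-pulsed EKO-labelled cells and 156 ± 6.29 (n = 3) in OVA-pulsed CtrV cells. It was called higher in EKO-labelled cells, at a log2 fold change of 0.31 with OVA and 0.41 without (edgeR adjusted p = 0.0106 and 0.00261). Small deletions left by a guide need not lower a transcript, so this level does not check the edit in either direction, and EKO is used here as the label of those libraries. All 12 dendritic cell markers of a list of 12 were expressed, with a summed level of 24320 to 27470 CPM per library. The sum came mostly from Cd74, with group means of 15504.3 to 17241.5 CPM. Flt3 and Batf3 were low, with group means of at most 4.66 and 10.5 CPM. The 9 neutrophil and mast cell markers summed to at most 0.0989 CPM, the 8 fibroblast markers to at most 0.261 CPM and the 10 T and B cell markers to at most 1.62 CPM. In every group, replicates differed by more than sampling noise, and replicate 1 of the EKO-labelled cells stood apart from replicates 2 and 3 with and without OVA, at a chi-square of 26.2 to 45.3 for each degree of freedom, against 7.5 and 11.8 between replicates 2 and 3. In CtrV cells, unpulsed replicate 3 (25.4 and 23.4, against 4.85 between the others) and OVA-pulsed replicate 1 (14.5 and 21.3, against 7.97) stood apart as well.

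To show the regulatory sequence of receptors that differed between the lines, the 250 bases before the RefSeq start (build GRCm38.p6) of Ly75, Marco and Stab1 are given below, 5′ to 3′ on the coding strand. These are the genes past the threshold in both line comparisons whose RefSeq start lay within 30 bases of the outermost start in the GENCODE annotation. The RefSeq table held 8 of the 10 genes, without Msr1 and Scarb1. The stretches are chr2:60383274-60383523 for Ly75, chr1:120505025-120505274 for Marco and chr14:31168642-31168891 for Stab1, all on the minus strand. Capitals mark matches, on either strand, to any of 5 motifs: the PU.1 core GAGGAA, the interferon response core GAAANNGAA, the AP-1 site TGANTCA, the GC box GGGCGG and the NF-kB consensus.
Ly75: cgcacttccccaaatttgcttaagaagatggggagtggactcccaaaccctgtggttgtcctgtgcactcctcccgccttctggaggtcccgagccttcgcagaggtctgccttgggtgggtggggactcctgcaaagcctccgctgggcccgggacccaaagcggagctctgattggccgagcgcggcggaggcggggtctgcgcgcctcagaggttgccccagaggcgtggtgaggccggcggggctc
Marco: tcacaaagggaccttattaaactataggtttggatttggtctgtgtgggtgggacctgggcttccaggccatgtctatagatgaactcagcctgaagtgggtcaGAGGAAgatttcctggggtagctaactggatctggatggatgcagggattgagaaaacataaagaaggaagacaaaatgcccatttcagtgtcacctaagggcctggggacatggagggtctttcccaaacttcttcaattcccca
Stab1: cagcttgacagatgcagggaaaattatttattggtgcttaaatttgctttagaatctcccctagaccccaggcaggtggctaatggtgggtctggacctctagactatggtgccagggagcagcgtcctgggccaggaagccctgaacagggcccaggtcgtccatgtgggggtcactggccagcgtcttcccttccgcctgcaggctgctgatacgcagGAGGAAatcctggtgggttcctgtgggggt
The PU.1 core occurred once in Marco, from base -146 to -141 relative to the start, and once in Stab1, from -30 to -25, and it occurred in 23.3% of all 32817 stretches of this kind in the table. None of the 5 motifs was found in the Ly75 stretch. The other motifs occurred in 7.12% (interferon response core), 6.75% (AP-1), 32.7% (GC box) and 3.90% (NF-kB) of all stretches. Base composition differed between the 3 stretches. Ly75 held 17 CG dinucleotides and 66.8% G or C, Stab1 held 5 and 57.2%, and Marco held 0 and 47.6%, beside a median of 6 and 52.4% over all stretches.

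Mrc1 (ENSMUSG00000026712, GRCm38 chr2:14229392-14332057, plus strand) was at 0 counts in all 12 libraries. Taking 3 counts as the limit of what a library can show, its level was under 0.0784 to 0.110 CPM, depending on the library; this limit covers counting error only. Stam, a gene near it on the chromosome, had 506 to 754 counts in the same libraries. Other genes looked up nearby were almost without reads: over the 12 libraries Tmem236 had 1 count, Slc39a12 2 and Mir511 0. The related genes Mrc2 and Pla2r1 had 1 count each over the 12 libraries. No line difference in Mrc1 was detectable at this depth. The 0 limits the reads assigned to this gene and is no measure of mannose receptor protein on the cells; its cause was not tested.

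Ly75 (ENSMUSG00000026980, chr2:60292103-60383303, minus strand), unlike its relative Mrc1, was expressed, and it was higher in EKO-labelled cells. OVA-pulsed CtrV libraries had 21, 9.38 and 10.2 CPM for replicates 1, 2 and 3, and OVA-pulsed EKO-labelled libraries had 126.8, 29.9 and 64.4 CPM. Unpulsed CtrV libraries had 8.87, 12.7 and 14 CPM, and unpulsed EKO-labelled libraries 114.5, 43.5 and 42.1 CPM. Every EKO-labelled library lay above every CtrV library, while the EKO-labelled libraries spread over a wide range among themselves. The log2 fold change was 2.36 ± 0.37 (SE) with OVA, or 5.14-fold (edgeR adjusted p = 0.000411), and 2.27 ± 0.38 without OVA, or 4.84-fold (edgeR adjusted p = 0.000658). Replicate 1 carried the highest values, and without it in both EKO-labelled groups the log2 fold changes were 1.91 and 1.97 (edgeR adjusted p = 0.0019 and 0.0012). On the opposite strand, Gm13571 covers 3.61% of the Ly75 exon length and had 2 counts in all.

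In the OVA-pulsed comparison, 7 of the 8 tested receptor genes passed an adjusted p of 0.05, 5 higher and 2 lower in EKO-labelled cells. Of all tested genes 47% passed, 25.1% higher and 21.9% lower. In unpulsed cells 6 of the 8 passed, 4 higher and 2 lower, where 46.4% of all genes passed, 24.5% higher and 21.9% lower. Libraries of the 2 lines did not overlap for 6 of the 8 genes with OVA, beside 52.9% of all genes, and for 6 of the 8 without OVA, beside 47.1%. The median log2 fold change of the 8 genes was 1.02 with OVA and 1.06 without, beside 0.00060 and 0.00010 over all tested genes. Cd36 and Marco passed the filter on low levels through EKO-labelled libraries alone, and the list was drawn up with earlier results known, so these counts only describe the 8 genes. In bulk RNA, more cells that express a gene and more RNA per cell cannot be told apart.

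**Figure D1:**
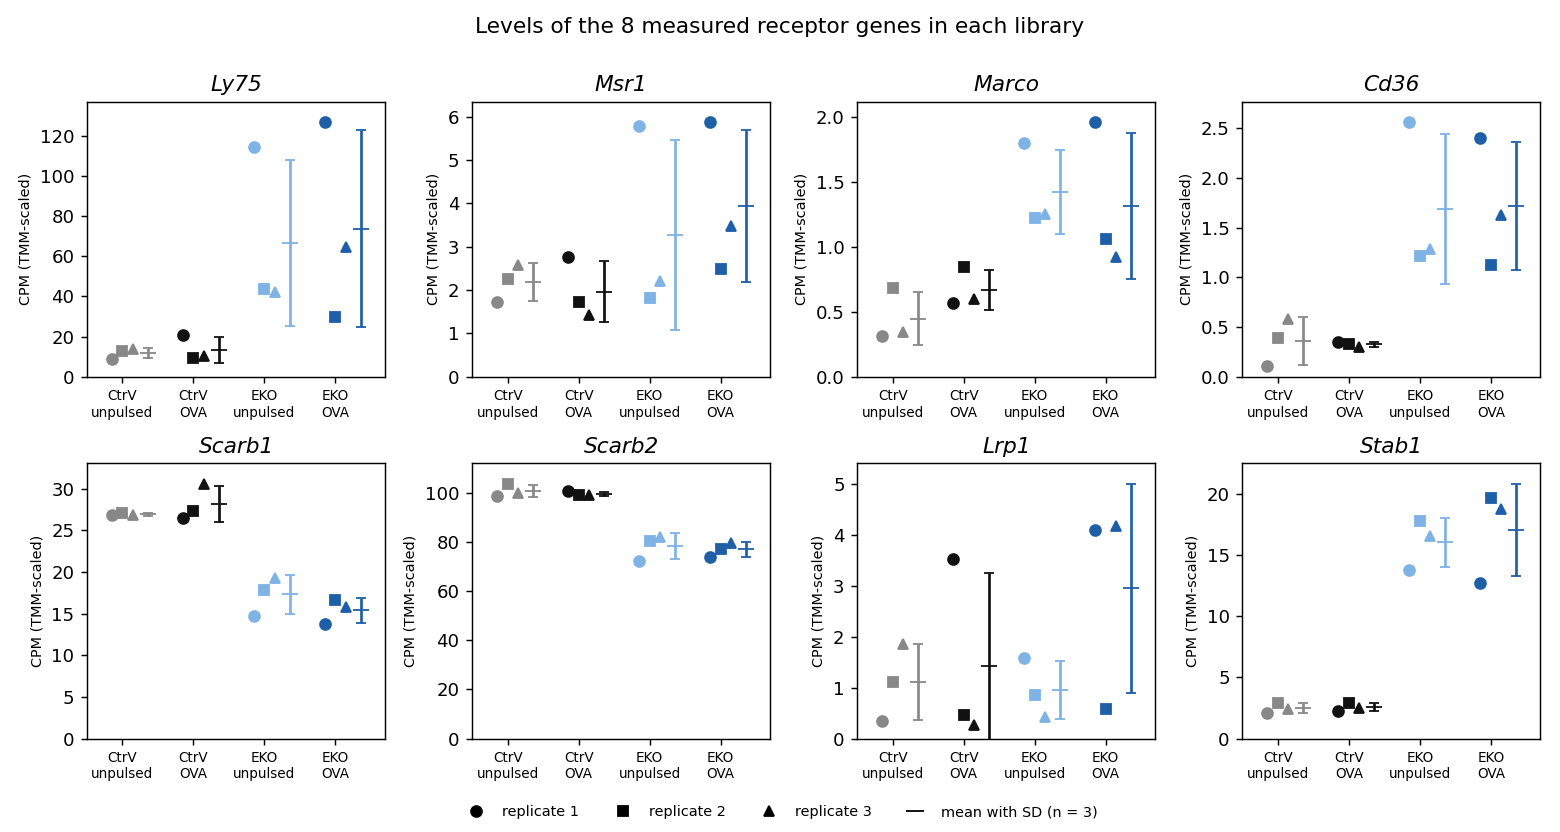
Level of each measured receptor gene (y axis, TMM-scaled CPM, each panel with its own scale from 0) in the 4 groups; each symbol is 1 library and the bar is the mean with SD (n = 3; for Lrp1 in OVA-pulsed CtrV cells the bar runs below 0 and is clipped). Ly75, Cd36, Marco and Stab1 lay higher in all EKO-labelled libraries than in any CtrV library of the same pulsing state, Scarb1 and Scarb2 lay lower, and Msr1 and Lrp1 overlapped.

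Msr1 (ENSMUSG00000025044, chr8:39581685-39642673, minus strand), the class A receptor of modified lipoproteins, was low in both lines. With OVA, the CtrV libraries had 2.75, 1.72 and 1.42 CPM and OVA-pulsed EKO-labelled libraries 5.88, 2.47 and 3.47 CPM. The groups overlapped, since the first CtrV library lay above the second EKO-labelled library, although within each replicate number the EKO-labelled library was higher. Its log2 fold change was 0.98 ± 0.31 (edgeR adjusted p = 0.0251). Without the replicate number as a block it was 1.00 with an adjusted p of 0.094, so this call rested on the pairing of replicates, and it was also lost without replicate 1 or 3 of either OVA-pulsed group (log2 fold changes 0.87 to 0.97, edgeR adjusted p 0.074 to 0.11). Unpulsed libraries had 1.73, 2.25 and 2.57 CPM in CtrV and 5.79, 1.81 and 2.20 CPM in EKO-labelled cells, and the difference of 0.45 ± 0.33 did not pass (edgeR adjusted p = 0.287). Without replicate 1 of the EKO-labelled cells the unpulsed difference was -0.0546 and the OVA-pulsed one 0.65 (edgeR adjusted p = 0.90 and 0.089).

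Marco (ENSMUSG00000026390, chr1:120474538-120505024, minus strand), which binds bacteria and particles, had 9 to 28 counts in CtrV libraries and 30 to 75 in EKO-labelled libraries. Under OVA its level was 0.567, 0.845 and 0.596 CPM in CtrV and 1.96, 1.06 and 0.921 CPM in EKO-labelled libraries. Without OVA it was 0.317, 0.679 and 0.343 CPM in CtrV and 1.79, 1.22 and 1.25 CPM in EKO-labelled libraries. The lines did not overlap in either state, with a narrow gap under OVA, between 0.845 and 0.921 CPM. Its log2 fold change was 1.66 ± 0.35 without OVA, or 3.16-fold (edgeR adjusted p = 0.00302), and 0.98 ± 0.31 with OVA (edgeR adjusted p = 0.0244). The OVA-pulsed call was lost without CtrV replicate 1 (0.65, edgeR adjusted p = 0.16), without EKO-labelled replicate 1 (0.59, adjusted p = 0.19) and without replicate 1 of both EKO-labelled groups (0.42, adjusted p = 0.25), whereas the unpulsed difference kept an adjusted p of 0.0042 in the last of these.

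Cd36 (ENSMUSG00000002944, chr5:17781690-17888801, minus strand), the class B receptor for fatty acids, oxidised lipoproteins and apoptotic cells, rose from a level near the limit of detection. OVA-pulsed CtrV libraries had 0.351, 0.332 and 0.298 CPM, and OVA-pulsed EKO-labelled libraries had 2.40, 1.12 and 1.63 CPM. Unpulsed CtrV libraries had 0.106, 0.393 and 0.583 CPM and unpulsed EKO-labelled libraries 2.56, 1.22 and 1.28 CPM. Each EKO-labelled library was higher than each CtrV library, and the counts behind these values were 3 to 17 in CtrV and 35 to 92 in EKO-labelled libraries. The log2 fold change was 2.38 ± 0.41 with OVA, or 5.19-fold (edgeR adjusted p = 0.000775), and 2.16 ± 0.43 without OVA, or 4.48-fold (edgeR adjusted p = 0.00193). Without EKO-labelled replicate 1 it was 1.82 and 1.59 (edgeR adjusted p = 0.0034 and 0.0076). The unpulsed value depended on single CtrV libraries: it was 1.44 without replicate 1, which had 3 counts, and 2.79 without replicate 3 (edgeR adjusted p = 0.0024 and 0.0019).

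Scarb1 (ENSMUSG00000037936, chr5:125277087-125341094, minus strand), the receptor for high-density lipoprotein, went the other way from its relative Cd36. The 3 CtrV libraries had 26.5, 27.3 and 30.6 CPM under OVA, and the 3 EKO-labelled libraries 13.8, 16.7 and 15.8 CPM. In unpulsed cells the CtrV libraries had 26.8, 27.1 and 26.8 CPM and unpulsed EKO-labelled libraries 14.8, 17.8 and 19.3 CPM. All EKO-labelled libraries lay below all CtrV libraries. This gave a log2 fold change of -0.87 ± 0.08 with OVA, or 1.83-fold lower (edgeR adjusted p = 6.5e-06), and -0.64 ± 0.08 without OVA, or 1.56-fold lower (edgeR adjusted p = 6.58e-05). Replicate 1 was the lowest EKO-labelled library in each pulsing state. Without it in both EKO-labelled groups the log2 fold changes were -0.814 and -0.559 (edgeR adjusted p = 2.2e-05 and 0.00025).

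Scarb2 (ENSMUSG00000029426, chr5:92441314-92506833, minus strand), the lysosomal member of the class, was the most abundant of the 10 genes in CtrV cells and fell by a smaller step. Levels under OVA were 100.7, 99.2 and 99.1 CPM in CtrV libraries and 73.8, 77.4 and 79.8 CPM in EKO-labelled libraries. Levels without OVA were 98.8, 103.8 and 100.1 CPM in CtrV and 72.3, 80.4 and 82.3 CPM in EKO-labelled libraries. The groups did not overlap. The log2 fold change was -0.37 ± 0.05 both with OVA (1.30-fold lower, edgeR adjusted p = 0.000149) and without it (1.29-fold lower, edgeR adjusted p = 0.000186). Replicate 1 was again the lowest EKO-labelled library in each pulsing state. Leaving it out of both EKO-labelled groups gave -0.346 with OVA and -0.315 without (edgeR adjusted p = 0.00066 and 0.0011).

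Lrp1 (ENSMUSG00000040249, chr10:127538161-127621148, minus strand), the clearance receptor for protease and inhibitor complexes, varied more between replicates than between lines. OVA-pulsed CtrV libraries had 3.53, 0.453 and 0.265 CPM and OVA-pulsed EKO-labelled libraries 4.10, 0.578 and 4.18 CPM. Unpulsed CtrV libraries had 0.352, 1.11 and 1.85 CPM and unpulsed EKO-labelled libraries 1.57, 0.857 and 0.428 CPM. Libraries spread widely within each group, and the lines overlapped in both pulsing states. The log2 fold change was 1.06 ± 0.72 with OVA (95% interval -0.52 to 2.65, edgeR adjusted p = 0.246) and -0.33 ± 0.94 without OVA (-2.40 to 1.75, edgeR adjusted p = 0.797). Without the high CtrV library under OVA, replicate 1, it was 2.76 (edgeR adjusted p = 0.036).

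Stab1 (ENSMUSG00000042286, chr14:31139013-31168641, minus strand), the multidomain scavenger receptor known from sinusoidal endothelium and alternatively activated macrophages, had the largest log2 fold change of the 8 genes in both line comparisons. OVA-pulsed CtrV libraries had 2.27, 2.93 and 2.48 CPM, and OVA-pulsed EKO-labelled libraries had 12.7, 19.7 and 18.8 CPM. Unpulsed CtrV libraries had 2.11, 2.90 and 2.44 CPM and unpulsed EKO-labelled libraries 13.8, 17.8 and 16.6 CPM. The lowest EKO-labelled library was far above the highest CtrV library, and unlike for Ly75, Msr1, Marco and Cd36, replicate 1 was the lowest and not the highest EKO-labelled library in each pulsing state. The log2 fold change was 2.72 ± 0.09 with OVA, or 6.59-fold (edgeR adjusted p = 1.36e-08), and 2.69 ± 0.10 without OVA, or 6.47-fold (edgeR adjusted p = 1.84e-08). The ratio of EKO-labelled to CtrV level within a replicate number lay between 5.62 and 7.55. Exons of Nt5dc2 on the opposite strand cover 1.09% of the Stab1 exon length, and Nt5dc2 had 262 to 381 counts per library.

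Cd163 (ENSMUSG00000008845, chr6:124304656-124330527, plus strand) had 1 count in all, in an OVA-pulsed EKO-labelled library, and 0 counts in the other 11 libraries. A line difference was not detectable at this depth.

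**Figure D2:**
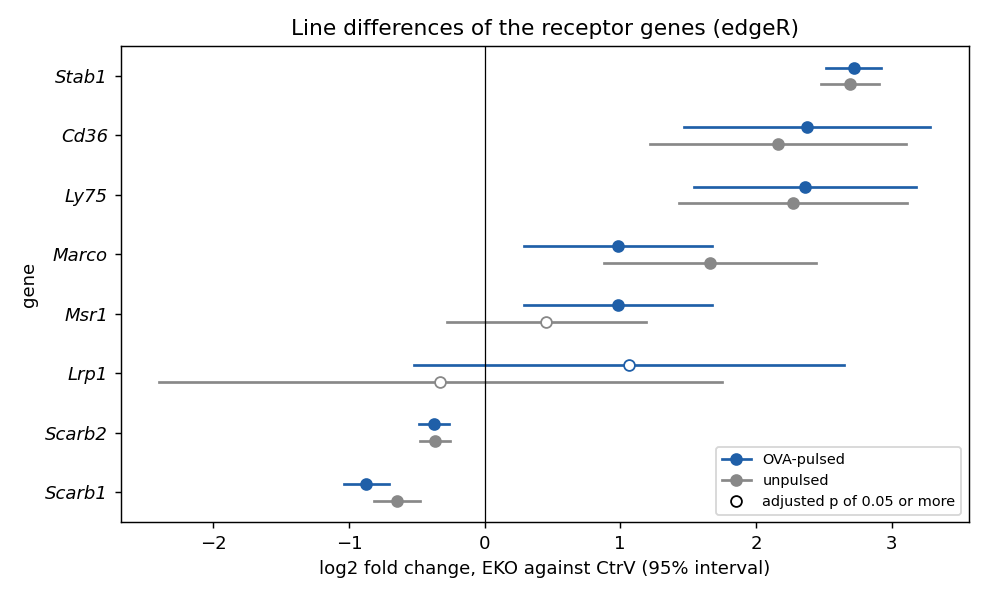
Log2 fold change of EKO-labelled against CtrV cells (x axis) for the 8 tested receptor genes (y axis), with OVA (blue) and without (grey); lines are 95% intervals and open symbols have an adjusted p of 0.05 or more. Stab1 had the highest value and the narrowest interval among the genes that rose, at 2.72 and 2.69, and Scarb1 the lowest value, at -0.87 and -0.64.

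Per kilobase of exon, the scale on which levels of different genes can be set side by side, Scarb2 stood first in CtrV cells under OVA with a level of 15.9 CPM per kb ± 0.146 (SD, n = 3), followed by Scarb1 at 3.31 ± 0.255 and Ly75 at 1.96 ± 0.937. Each of these was above the next in every library. Marco (0.348 ± 0.0794), Msr1 (0.310 ± 0.110) and Stab1 (0.249 ± 0.0327) formed the next step, where neighbours overlapped, and Cd36 (0.0911 ± 0.00745) and Lrp1 (0.0800 ± 0.104) came last and overlapped as well. In OVA-pulsed EKO-labelled cells the levels were 12.3 ± 0.480 for Scarb2 and 10.7 ± 7.11 for Ly75, which overlapped, then 1.81 ± 0.175 for Scarb1 and 1.66 ± 0.367 for Stab1, which overlapped too. Of the summed level of the 10 genes, Ly75 made up 6.33 to 13% in OVA-pulsed CtrV libraries and 19.9 to 51.3% in OVA-pulsed EKO-labelled libraries, while Scarb2 made up 68.4 to 73.5% and 32.8 to 56.4%.

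**Figure D3:**
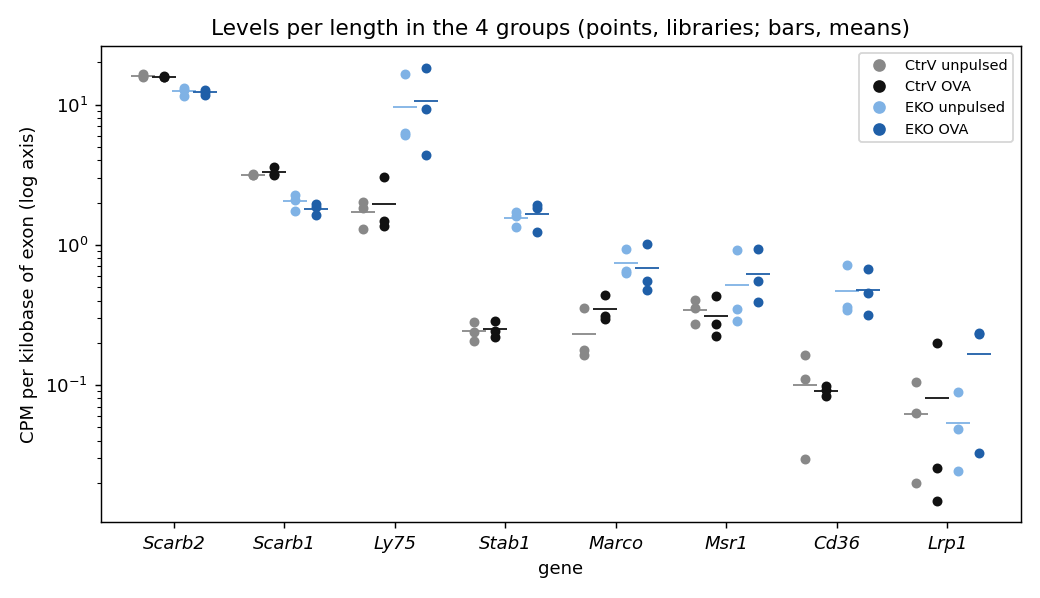
Level per kilobase of exon (y axis, CPM per kb, log axis) of the 8 measured receptor genes (x axis); points are libraries, horizontal bars group means, colours the 4 groups. Scarb2 leads in CtrV cells, Ly75 reaches the range of Scarb2 in EKO-labelled cells, and Stab1 moves from the low group at 0.249 to the level of Scarb1 at 1.66 CPM per kb under OVA.

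OVA itself was not seen to change a receptor gene. Of all tested genes 0% passed in the comparison of OVA-pulsed with unpulsed CtrV cells, 0% in EKO-labelled cells and 0% for a dependence of the line difference on OVA. At an unadjusted p under 0.05, edgeR had 231, 394 and 269 genes in these comparisons, and DESeq2, which also called 0, had 44, 156 and 103. For all 8 receptor genes the pulsed and unpulsed libraries of a line overlapped, as for most genes, of which 4.36% in CtrV and 4.91% in EKO-labelled cells did not. The largest OVA effect among the 8 genes was that on Lrp1 in EKO-labelled cells, at 1.59 ± 0.79 (95% interval -0.16 to 3.34, edgeR adjusted p = 1). In CtrV cells it was largest for Marco, at 0.57 ± 0.40 (-0.31 to 1.45, edgeR adjusted p = 1). The effect of OVA on Stab1 was 0.05 ± 0.12 in CtrV cells (95% interval -0.21 to 0.31) and 0.08 ± 0.08 in EKO-labelled cells (-0.092 to 0.25). For Scarb2 it was -0.017 (-0.13 to 0.094) and -0.024 (-0.14 to 0.088). For Ly75 the intervals were wide, -0.86 to 0.91 in CtrV and -0.63 to 0.85 in EKO-labelled cells, so that a change of the size of the line difference lay outside them but a smaller one did not. The dependence of the line difference on OVA was largest for Lrp1, at 1.39 ± 1.19 (-1.24 to 4.02), and had the smallest unadjusted p for Scarb1, at -0.23 ± 0.11 (-0.47 to 0.011). It was -0.68 ± 0.49 for Marco and 0.53 ± 0.46 for Msr1, and none of the 8 genes passed (edgeR adjusted p = 1 for each). The pulsing comparisons and this dependence share their libraries.

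Other scavenger and pattern receptors also differed between the lines. Of 20 such receptors outside the 10 genes 9 were tested. Under OVA 8 were higher (88.9%) and 1 was lower (11.1%) in the EKO-labelled libraries, beside 25.1% and 21.9% of all genes. Their median log2 fold change was 1.82. Cd207 (langerin), a lectin of Langerhans cells, rose from 8.40 CPM ± 0.290 to 95.5 ± 13.8 (SD, n = 3; log2 fold change 3.50 ± 0.12 SE, edgeR adjusted p = 1.66e-08). Clec7a (dectin-1), the receptor for fungal beta-glucan, fell from 249 CPM ± 34.0 to 63.7 ± 16.8 (log2 fold change -2.01 ± 0.24, edgeR adjusted p = 7.08e-05). Without OVA 7 of the 9 were higher (77.8%) and 1 was lower (11.1%), beside 24.5% and 21.9% of all genes. Scarf2, with a mean log2 CPM of -1.20 and a log2 fold change of 2.02 under OVA, may have passed the filter through EKO-labelled libraries alone. The list was also chosen with earlier results known, so these shares only describe the 9 genes.

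Among 17 other mannose receptor and LDL receptor family genes 9 were tested. With OVA 3 were higher (33.3%) and 0 lower, beside 25.1% and 21.9% of all genes (median 0.068). Without OVA 3 were higher (33.3%) and 1 lower (11.1%), beside 24.5% and 21.9% of all genes. Sorl1, a sorting receptor of the LDL receptor family that works between Golgi and endosomes, rose from 28.6 CPM ± 3.12 to 134 ± 5.03 (log2 fold change 2.24 ± 0.10, edgeR adjusted p = 6.91e-08). Of 23 receptors and bridging factors for apoptotic cells 16 were tested, with 8 higher (50%) and 3 lower (18.8%) under OVA and a median of 0.20. Without OVA 7 were higher (43.8%) and 5 lower (31.2%), beside the same 24.5% and 21.9%. C1qc, a chain of complement C1q, rose from 182 CPM ± 13.8 to 381 ± 37.3 (1.06 ± 0.11, edgeR adjusted p = 1.66e-05). Dock1, the guanine nucleotide exchange factor that acts with ELMO in engulfment, fell from 14.4 CPM ± 1.31 to 0.953 ± 0.269 (-3.91 ± 0.15, edgeR adjusted p = 2.81e-08).

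Genes of the internal uptake machinery were called in both directions, as genes were in general. Of 32 genes for the clathrin coat, its adaptors and early endosomes 29 were tested. With OVA 10 were higher (34.5%) and 5 lower (17.2%), beside 25.1% and 21.9% of all genes (median 0.068). Without OVA 9 were higher (31%) and 7 lower (24.1%), beside 24.5% and 21.9% of all genes. Snx2, a sorting nexin of the retromer, rose (0.85 ± 0.10, edgeR adjusted p = 5.49e-05), and Ap2a2, an AP-2 adaptor subunit, fell (-0.47 ± 0.05, edgeR adjusted p = 3.57e-05). Rab4a, a GTPase of recycling from early endosomes that was singled out after its values were seen, had 24 to 35 counts in OVA-pulsed CtrV libraries, 16 to 35 in unpulsed ones and 0 in all 6 EKO-labelled libraries. Against a floor of 3 counts per library it was at least 9.48-fold lower with OVA and at least 8.59-fold lower without. Rab4a could pass the filter on low levels through CtrV libraries alone, so its call only describes it. All 21 genes for macropinocytosis and cytoskeletal uptake were tested, with 8 higher (38.1%) and 6 lower (28.6%) under OVA and a median of 0.080. Without OVA 10 were higher (47.6%) and 6 lower (28.6%), beside the same 24.5% and 21.9%. Pikfyve, the lipid kinase of macropinosome maturation, rose (1.25 ± 0.06, edgeR adjusted p = 1.59e-07), and Rab34, a GTPase of macropinosome formation, fell (-2.70 ± 0.12, edgeR adjusted p = 6.48e-08).

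Of 20 genes that handle lipid after uptake 16 were tested. Under OVA 6 were higher and 6 lower (37.5% each), beside 25.1% and 21.9% of all genes (median -0.057). Without OVA 7 were higher (43.8%) and 5 lower (31.2%), beside 24.5% and 21.9% of all genes. Pltp, the phospholipid transfer protein, rose from 34.4 CPM ± 2.00 to 82.1 ± 3.16 (1.25 ± 0.06, edgeR adjusted p = 1.13e-07), and Rxra, the nuclear receptor that pairs with LXR and PPAR, fell from 14.8 ± 1.06 to 9.17 ± 1.36 (-0.70 ± 0.13, edgeR adjusted p = 0.00103). Of 28 ligands, partners and sheddases of the receptors 20 were tested, with 9 higher (45%) and 7 lower (35%) under OVA and a median of 0.076. Without OVA 8 were higher (40%) and 7 lower (35%), beside the same 24.5% and 21.9%. Blvrb, a biliverdin reductase downstream of haem uptake, rose (0.58 ± 0.07, edgeR adjusted p = 8.77e-05), and Plau, the urokinase whose inhibitor complexes are cleared by Lrp1, fell from 100.3 CPM ± 2.92 to 43.3 ± 6.03 (-1.22 ± 0.10, edgeR adjusted p = 3.28e-06).

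**Figure D4:**
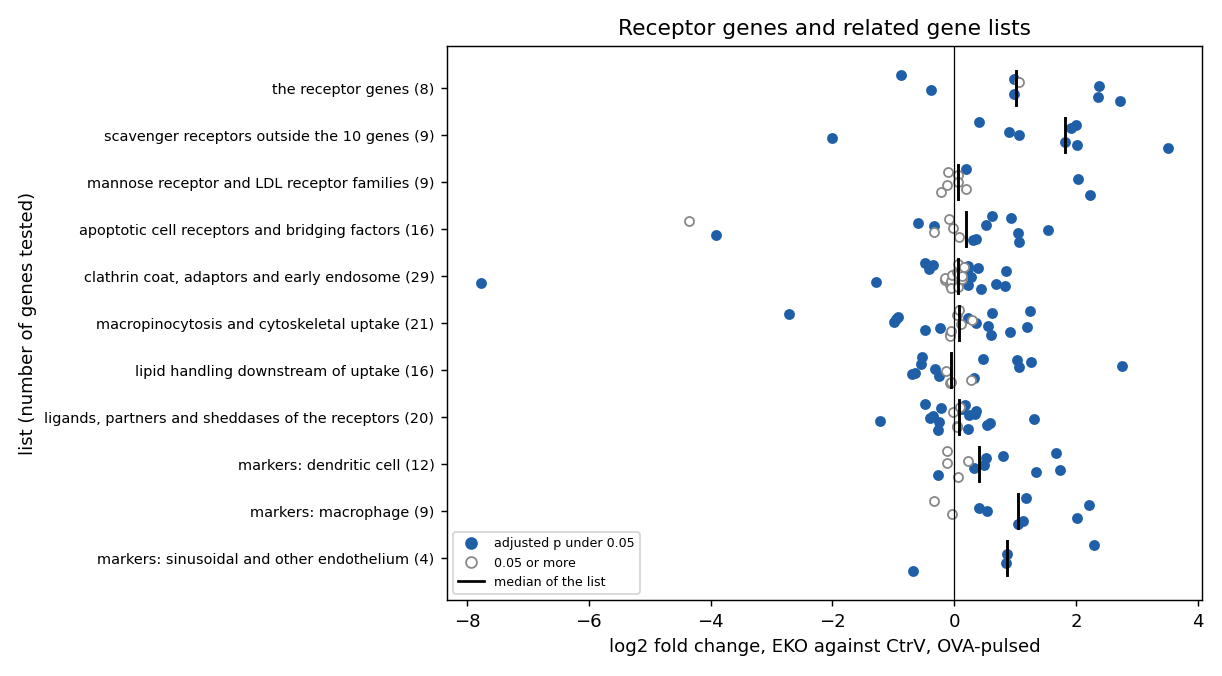
Log2 fold change of EKO-labelled against CtrV cells under OVA (x axis) for the tested genes of each list (y axis, number tested in parentheses); filled points have an edgeR adjusted p under 0.05 and black bars are list medians. The receptor genes (median 1.02) and the other scavenger receptors (1.82) lie mostly to the right of 0, while the uptake machinery spreads around 0; the point near -8 is Rab4a, whose fitted value depends on the prior count because it had 0 counts in EKO-labelled libraries.

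Several of these receptors are prominent in macrophages, and markers of that cell type were also raised in the EKO-labelled libraries. Of 10 markers 9 were tested. In each pulsing state 7 (77.8%) rose and 0 fell in EKO-labelled cells, beside 25.1% and 21.9% of all genes with OVA and 24.5% and 21.9% without. The median was 1.04 with OVA. The summed level of the markers was 1685 to 1904 CPM in CtrV and 2537 to 2823 CPM in EKO-labelled libraries. C5ar1, the complement C5a receptor, rose from 56.0 CPM ± 6.82 to 259 ± 10.3 (2.21 ± 0.11, edgeR adjusted p = 1.5e-07), Adgre1 (F4/80) was at -0.030 ± 0.054 (edgeR adjusted p = 0.678), and Vsig4 was at 0 counts in every library. Mertk, at -0.32 ± 0.25, was not called either (edgeR adjusted p = 0.312). Cd68 is on both this list and the list of scavenger receptors, and C1qa and Mertk are also on the list for apoptotic cells. Of the 12 dendritic cell markers 7 were higher (58.3%) and 1 lower (8.33%) with OVA, and 6 (50%) and 1 (8.33%) without. The largest rise with OVA was that of Flt3, at 1.74 ± 0.42 (edgeR adjusted p = 0.00573). Its level was low, at 1.36 CPM ± 0.317 in OVA-pulsed CtrV cells. In OVA-pulsed EKO-labelled libraries it spread from 2.25 to 7.34 CPM. Without OVA Flt3 was at 0.92 (edgeR adjusted p = 0.101). The marker that fell with OVA was Itgax (CD11c), at -0.27 ± 0.06 (edgeR adjusted p = 0.00402). The part of these markers in the receptor differences was not tested.

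Stab1 is also a marker of sinusoidal endothelium, and 4 of 10 endothelial markers were tested. With OVA 3 were higher (75%) and 1 lower (25%), beside 25.1% and 21.9% of all genes. The other 6 were too low to test: Tek had 0 counts in every library, Stab2, Lyve1, Kdr and Clec4g had at most 0.175 CPM on average in any group, and Egfl7 at most 0.362 CPM. Oit3 rose from 1.54 CPM ± 0.0993 to 7.81 ± 2.19 (2.30 ± 0.14, edgeR adjusted p = 5.48e-07), Cdh5 (VE-cadherin) from 1.29 ± 0.341 to 2.35 ± 0.479 (0.87 ± 0.14, edgeR adjusted p = 0.000559), and Vwf fell from 8.07 ± 0.639 to 5.08 ± 0.772 (-0.67 ± 0.11, edgeR adjusted p = 0.000626). The summed level of the list, 177 to 212 CPM in CtrV and 295 to 364 CPM in EKO-labelled libraries, came mostly from Pecam1 (CD31), which leukocytes also express, at 181 and 326 CPM under OVA. The part of these genes in the Stab1 difference was not tested.

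For each tested receptor gene, the genes with the most similar profile over the 12 libraries were found by the root mean square difference of log2 CPM after centring each gene on its own mean. For Stab1, with a spread around its mean of 1.35, they were Muc16 (0.16), Cd300ld (0.20) and C3ar1 (0.20). For Ly75, with a spread of 1.31, they were Adora2a (0.26), Fscn1 (0.27) and Tex14 (0.30). Msr1 was nearest to Gsto1, Flrt3 and Efna2 (0.17 to 0.20), Marco to Celsr1, Ubtd2 and Cntnap1 (0.26 to 0.32) and Cd36 to Sh3bp4, Adam19 and Itga3 (0.39 to 0.41). Scarb1 was nearest to Nrm, Pak1 and Arhgap15 (0.039 to 0.064) and Scarb2 to Ssna1, Usp48 and Ociad1 (0.044 to 0.048), both with a small spread of their own (0.40 and 0.19). Lrp1 had no close neighbour among the genes searched, those with a mean log2 CPM of at least 1. Adcy6, Ccr7 and Dusp14 lay at 0.64 to 0.67, against a spread of 1.28 for Lrp1. The mean log2 CPM of Lrp1 (0.19), Marco (-0.14) and Cd36 (-0.32) was itself below that level. The part of low counts in these distances was not tested.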

How the data were processed

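The deposited file holds raw counts per gene, 1 column for each of the 12 libraries, as the authors made them. In the study's methods, STAR placed the reads on mm10 (1 location per read where several fitted equally well) and featureCounts assigned read ends to exon unions of Ensembl genes. The library kit keeps the strand; whether the counting used it is not stated. Positions, exon lengths and symbols were taken here from GENCODE for GRCm38, equivalent to mm10, and promoter sequences from RefSeq.

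Testing used edgeR 4.0.16 in R 4.3.3 on the 14079 genes whose log2 CPM exceeded 0 in 2 or more libraries. Counts were TMM-normalized and fitted by quasi-likelihood with terms for group and replicate number, all libraries together; p-values were adjusted over all these genes (Benjamini-Hochberg) and called under 0.05 at any fold, since the limits are blank in the methods. Fold changes, their standard errors and 95% intervals come from this fit. Its p-values measure the spread left between libraries after the group and replicate-number terms, over all 4 groups together. CtrV was a single line and EKO a single pool of clones. No p-value therefore measures a spread between separately made lines. How separate the replicate cultures were is not given. The labels give the replicate numbers, and the replicate term entered every comparison of the main fit. Deviations of same-numbered libraries correlated at 0.448, 0.292 and 0.289 in the OVA-pulsed line comparison. Between OVA-pulsed and unpulsed EKO-labelled cells the values were 0.706, 0.351 and 0.411. In both, every pair lay above 0.1, the limit set for taking the numbers as pairs. The unpulsed line comparison had 0.0602, -0.0118 and 0.263, and OVA-pulsed against unpulsed CtrV cells 0.0775, 0.179 and 0.373. There the numbers did not meet this limit, but the same term was fitted. The procedure was also run on simulated counts. These had the same relative spread for every gene and no replicate effect, so they do not check the replicate term. Alternatives were RLE normalization, DESeq2 1.42.0, the newer quasi-likelihood fit, no filter on low counts, at least 10 counts in every library, no replicate block, the 2 compared groups alone, and leaving out each library; leaving out replicate 1 of both EKO-labelled groups was chosen after seeing the data.

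The receptor genes and the other lists were chosen with earlier results of these data known. List genes near the filter limit may have passed it only through the line where they were higher. The list shares therefore only describe the tested genes. Named were all 10 genes; from each other list the largest rise and fall in OVA-pulsed cells among genes with an adjusted p under 0.05 and a mean log2 CPM of at least 1; the 3 nearest profiles of each tested gene at that same mean level; and Siglece. Pecam1, Cdh5, Stab2, Lyve1, Kdr, Clec4g, Egfl7, Tek, Adgre1, Vsig4, Cd68, C1qa, Mertk, Cd74, Batf3, Rab4a and neighbouring or overlapping genes were named outside this rule, after their values were seen. Scarf2 was named outside it as well, for its low level.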

Additional observations from a re-analysis of the deposited data

How the results depend on the processing

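Ly75, Cd36, Stab1, Scarb1 and Scarb2 kept their direction and stayed past the threshold in both line comparisons under every alternative in which they were tested. Cd36 passed the filter on low levels through EKO-labelled libraries alone, so its calls in the fits that used this filter only describe it. At least 10 counts in every library took Cd36, Marco and Lrp1 out of the test. Over all alternatives 5 to 7 receptor genes passed with OVA and 4 to 6 without, and 5177 to 6999 and 4797 to 6556 of all genes. Dropping the replicate block left 5413 and 5337 genes, of which 5410 and 5328 were also called with the block, and changed no receptor call except that of Msr1 under OVA (1.00, adjusted p 0.094). The calls of Msr1 and Marco under OVA were lost, and that of Lrp1 was gained, by leaving out single libraries, with log2 fold changes of 0.867 to 1.09, 0.586 to 1.21 and 0.406 to 2.76 over these fits.

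Direction changed only where a difference had not passed. DESeq2 gave -0.363 for Lrp1 and -0.0308 for Ly75 as the effect of OVA in CtrV cells. For the dependence of the Ly75 line difference on OVA, the value was -0.047 without the block and -0.0608 without EKO-labelled replicate 1 in both groups, and the unpulsed Msr1 difference was -0.0546 in the latter. Leaving out each library in turn gave, for the unpulsed line difference, -1.35 to 0.352 (Lrp1) and -0.0806 to 0.748 (Msr1). The effect of OVA in CtrV cells was -0.906 to 0.456 (Cd36), -1.43 to 0.875 (Lrp1), -0.543 to 0.408 (Ly75), -0.747 to 0.0779 (Msr1), -0.0594 to 0.00555 (Scarb2) and -0.00723 to 0.109 (Stab1). In EKO-labelled cells it was -0.163 to 0.341 (Cd36), -0.157 to 0.421 (Ly75), -0.501 to 0.0874 (Marco) and -0.067 to 0.00735 (Scarb2). The dependence on OVA was -0.41 to 0.945 (Cd36), -0.324 to 0.65 (Ly75), -0.0494 to 0.0359 (Scarb2) and -0.0468 to 0.12 (Stab1). The cause of these changes was not tested. Counts of 3 to 28 behind Cd36 and Marco in CtrV cells limit their precision.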
